A study of Mus musculus with 24 samples.

Results

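The cytosolic ribosomal protein genes encode the protein components of the 60S and 40S ribosomal subunits. They were taken by name, as the protein-coding mouse genes called Rpl or Rps with a number, together with Rplp0 to Rplp2 and Rpsa, without pseudogenes and without the Rps6k kinases. Of 82 such genes in RefSeq, 81 had a probe (50 of the 60S and 31 of the 40S subunit), among 21154 genes named on the array, and Rpl37 was the gene without a matched probe. Each gene was read from its probe with the brightest mean Cy5 signal, and 168 probes of these genes were measured in all. The Cy5 signal of 78 of the 81 members stood well above background on every one of the 24 arrays.

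Thymocyte RNA came from C57BL/6J mice of 4 to 5 weeks, 3 males and 3 females in each of 4 conditions. Control mice were not irradiated, low dose mice received 0.075 Gy of X-rays, high dose mice received 1.75 Gy of γ-rays, and mice of the radio-adaptive response group (RAR) received 0.075 Gy of X-rays and then, after 6 h, 1.75 Gy of γ-rays. Thymuses were dispersed and strained without sorting, and the time between irradiation and collection was not given in the sources used here. Every array paired Cy5-labeled thymocyte RNA with a common Cy3-labeled mouse reference RNA, so a level below is the log2 ratio of thymocyte over reference signal and a difference is a difference between group means of that ratio.

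Ribosomal proteins are made in matched amounts for assembly with ribosomal RNA in the nucleolus, and their mRNAs begin with a tract of pyrimidines (the TOP motif) through which growth signals set their translation. Some members also act away from the ribosome: free RPL5, RPL11, RPL23, RPL26 and RPS7 can bind MDM2, the ubiquitin ligase that keeps TRP53 low. RPS27L, a close relative of RPS27, is encoded by a known TRP53 target gene, and thymocytes are cells in which radiation acts strongly through TRP53.

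The following 30-base windows hold the 15 bases before and the first 15 bases from the most upstream RefSeq start (build GRCm38.p6) of the members whose values are described most closely below. Capitals mark the cores CTTTC and CTTCC, pyrimidine stretches of the kind found at TOP starts, which may overlap by the letter they share.
Rps19, chr7:24884577-24884606, plus strand: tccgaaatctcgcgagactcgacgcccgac
Rps27l, chr9:66946071-66946100, plus strand: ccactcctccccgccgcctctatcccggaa
Rps27, chr3:90213634-90213663, minus strand: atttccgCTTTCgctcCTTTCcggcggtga
Rpl11, chr4:136053379-136053408, minus strand: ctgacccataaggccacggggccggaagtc
Rpl15, chr14:18270972-18271001, minus strand: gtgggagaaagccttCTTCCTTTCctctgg
Rps10, chr17:27635230-27635259, minus strand: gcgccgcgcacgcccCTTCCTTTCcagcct
A core lay on the sense strand of this window in 24 of the 61 members with a start in the table (39.3%) and in 10.4% of all 27025 genes there. On the other strand the shares were 14.8% and 10.4%. The annotated start is not always the start used in thymocytes, and a window without a core says only that these letters are not there.

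Before the results, the arrays and the cells were checked. The share of probes well above background in Cy5 lay between 49.3% and 62.8% on 22 arrays, and was 34.7% on female RAR replicate 3 and 71.8% on female RAR replicate 2. Genes of double-positive thymocytes were far above the reference in control (Rag1 5.56, Dntt 8.23, Cd8a 6.32 as mean log2 ratios), as the label of the samples says. Marker genes of other cells moved with treatment: 9 of 10 myeloid markers were higher in RAR than in control and Mpo was lower, and their mean log2 ratio per array ran from 0.21 to 0.67 in control, 1.03 to 1.36 in low dose, 1.10 to 1.52 in high dose and 1.71 to 2.40 in RAR. None of the 10 myeloid markers was below background on all arrays of a condition, and their summed log2 Cy5 level ran from 15.8 to 16.5 in control and from 17.2 to 18.6 in RAR. Of 10 proliferation genes, 9 were lower in RAR, and of 8 markers of mature T cells 6 were higher. Among all probes 16.5% were higher and 21.7% lower in RAR by the adjusted p. Mean log2 ratios per array of double-positive, B-cell, erythroid and stroma markers overlapped between control and RAR. Those of 8 thymic epithelium markers fell from 0.50 to 0.97 in control to -0.57 to 0.11 in RAR. The summed log2 Cy5 level of the double-positive markers ran from 18.4 to 18.9 in control and from 16.9 to 18.3 in RAR, without overlap. Summed levels of the B-cell, erythroid and stroma markers overlapped between control and RAR. The part of these changes in the results below was not tested, and in bulk RNA fewer cells of a type and less RNA per cell cannot be told apart.

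In unirradiated thymocytes the family stood close to the reference RNA. The median log2 ratio of the 81 members lay between -0.01 and 0.11 on the 6 control arrays. Rps14, a 40S protein, and Rps27 had the highest mean ratios of the 78 members measured on every array, at 1.75 ± 0.25 and 1.17 ± 0.14 (SD, n = 6), followed by Rpl11 at 0.99 ± 0.09. The lowest of the 78 were the 40S genes Rps18 at -0.92 ± 0.11 and Rps2 at -0.84 ± 0.11. Without dye swaps these ratios can hold a dye bias of each probe. Only a bias that is the same on every array cancels in the differences between groups.

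The family hardly moved with irradiation, against an array on which many probes did. At the methods' threshold (limma, Benjamini-Hochberg adjusted p under 0.05 and at least 1.5-fold), 2 of 81 members passed in low dose against control, where 9.89% of all probes passed. The count was 2 of 81 in high dose, where 11.5% passed, and 2 of 81 in RAR, where 26% passed. All were rises, and in each comparison they were Rps19 and Rpl10l. The 3 comparisons share the control arrays. Of the control arrays 5 lay on slide 3 and 1 on slide 2, and no high dose or RAR array was on slide 3. Treatment and slide are therefore largely confounded in high dose and RAR against control, and the p-values do not separate them. In RAR, 69 of 81 members stayed within 1.25-fold of control, as did 42.2% of all probes. In low and high dose 77 and 75 members did.

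With the adjusted p alone, small falls appeared in many members. In low dose 3 members were higher and 15 lower than control, 22.2% of the family against 21.6% of all probes (9.35% higher, 12.3% lower). In high dose 6 were higher and 23 lower, 35.8% against 23.7% (10.3% higher, 13.4% lower). In RAR 10 were higher and 34 lower, 54.3% against 38.2% (16.5% higher, 21.7% lower). Nearly all members are bright, and among the 18187 probes measured above background throughout, 74.2% passed in RAR. The 6 RAR arrays lay above all 6 control arrays for 7 members and below them for 23, as they did for 9.95% and 14.9% of all probes. The median log2 difference of the members was -0.08, -0.07 and -0.12 in low dose, high dose and RAR, and that of all probes was -0.01, -0.02 and -0.03. Both subunits gave like counts, with 6 higher and 21 lower of 50 for 60S and 4 higher and 13 lower of 31 for 40S in RAR.

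**Figure D1:**
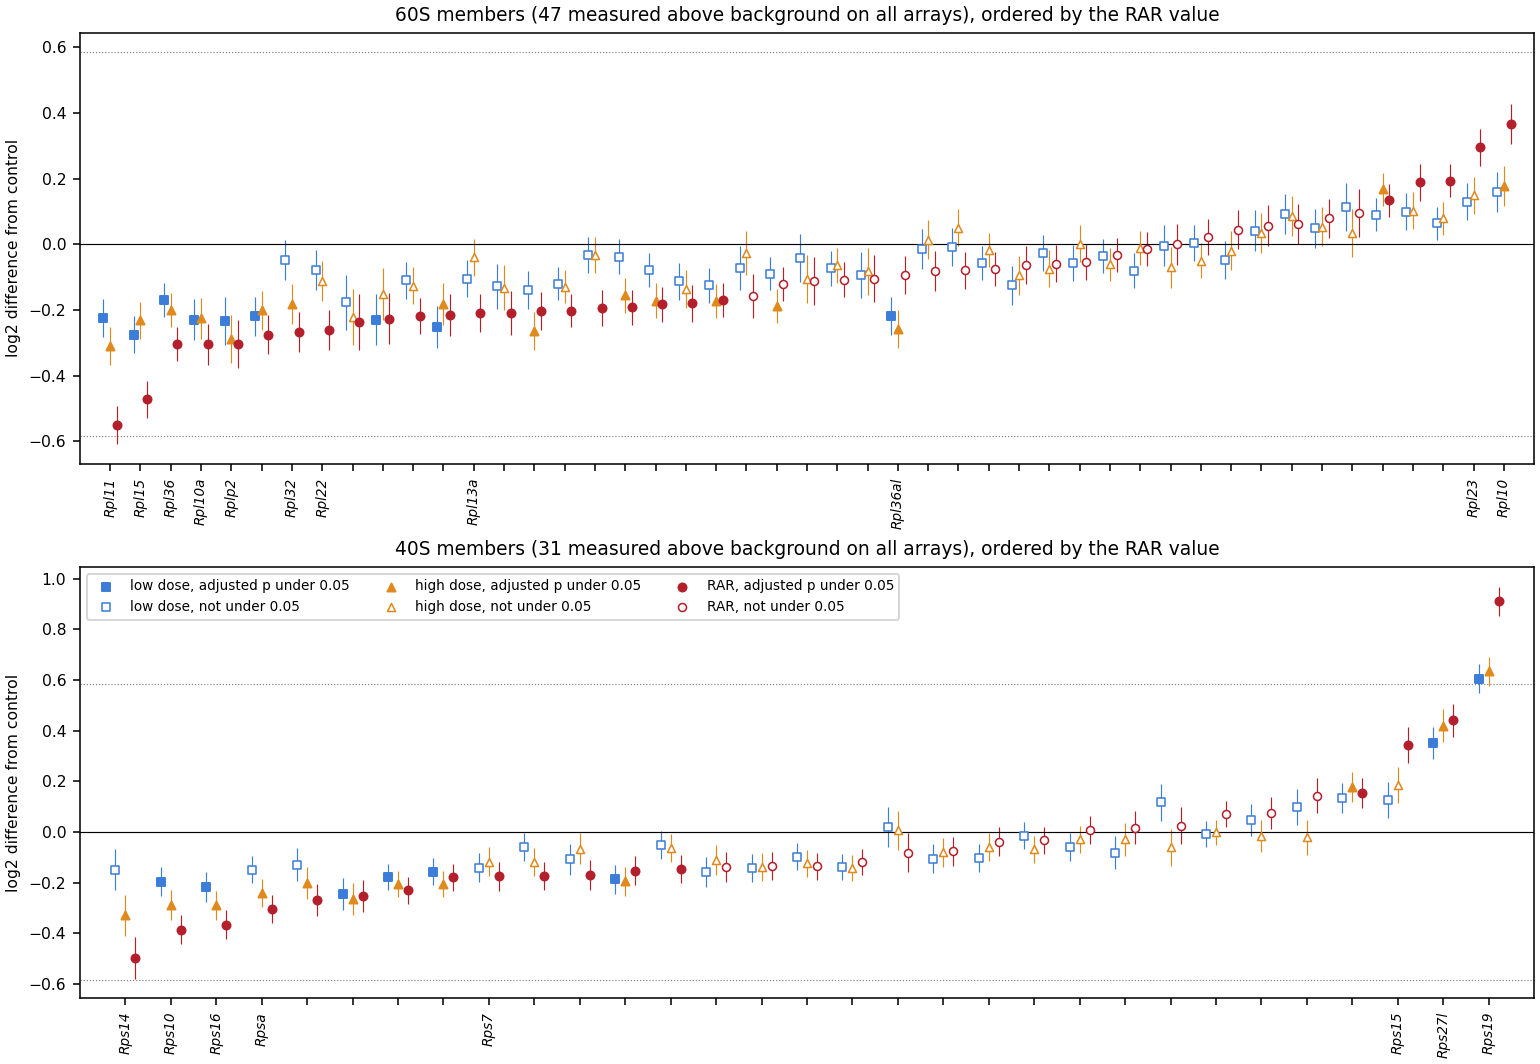
Log2 difference from control (y axis) of the 78 members measured above background on all arrays, in low dose, high dose and RAR, ordered by the RAR value within each subunit; bars are standard errors of the limma fit, filled symbols have an adjusted p under 0.05, dotted lines mark 1.5-fold, and names are given for the members followed through the alternatives. Rps19 is the only member plotted beyond a dotted line, and Rpl11 at -0.55 and Rps14 at -0.50 in RAR are the lowest.

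The number of these small shifts depended on the processing. In the comparisons with control, the sign of the family median turned only with normexp background correction and loess. With normexp background correction and loess, RAR against control gave 27 members higher and 7 lower, with a family median of 0.04. Quantile normalization between arrays gave 7 higher and 10 lower, and the slide as a block gave 5 higher and 8 lower. Their family medians were -0.08 and -0.11, where those of all probes were -0.01 and -0.04. With the Cy5 channel alone, 3 were higher and 63 lower, with a family median of -0.30 where the median of all probes was 0.52. Low dose turned from 3 higher and 15 lower to 13 and 3 with normexp and loess, to 3 and 2 with quantiles and to 2 and 29 with Cy5 alone. High dose turned from 6 and 23 to 15 and 7, to 4 and 5 and to 2 and 54 under the same settings, and the slide block left 2 and 0. The count of falling members is therefore a statement about the deposited ratios and is not kept by these other scalings. Under the remaining settings 29 to 49 members were lower and 5 to 13 higher in RAR. Shares of all probes under these settings are not given, so the counts are not set against the array.

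**Figure D2:**
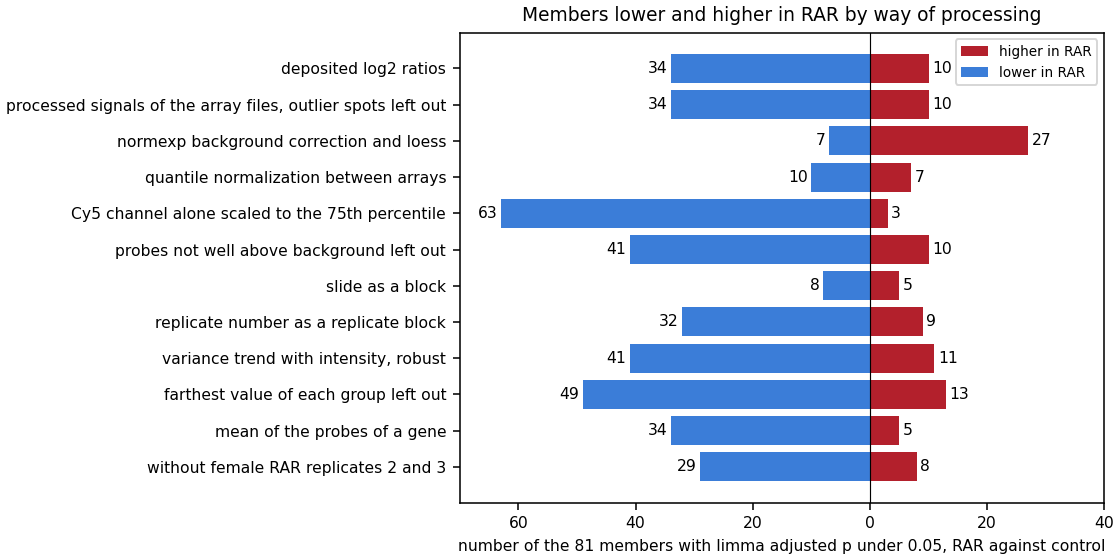
Number of the 81 members lower (left bars) and higher (right bars) in RAR than in control at a limma adjusted p under 0.05, for the deposited log2 ratios and 11 other ways of processing. The split runs from 63 lower and 3 higher with Cy5 alone to 7 lower and 27 higher with normexp and loess.

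The share of signal that the family took showed the same treatments on a linear scale. Of all Cy5 signal, the 81 probes held 6.83% ± 0.21 in control (SD, n = 6), 6.29% ± 0.26 in low dose, 6.21% ± 0.17 in high dose and 5.53% ± 0.32 in RAR. The 6 RAR arrays (5.11% to 6.00%) lay below all 6 control arrays (6.60% to 7.05%). The same probes held 6.39% to 6.76% of the Cy3 signal of the reference on control arrays and 6.68% to 6.97% on RAR arrays, although the reference RNA was common to them. The RNA of other genes also enters these shares, so they give no level of the family by itself.

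**Figure D3:**
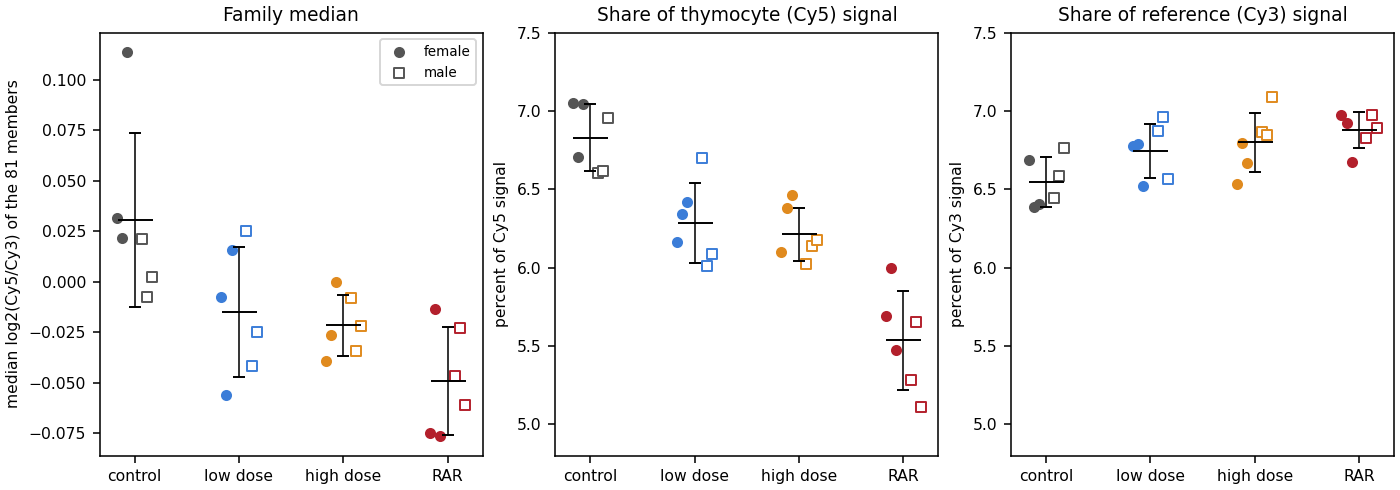
Median log2 ratio of the 81 members, their share of the Cy5 signal and their share of the Cy3 signal on each of the 24 arrays by treatment; black bars are the mean and SD of 6 arrays. The Cy5 share falls from 6.83% in control to 5.53% in RAR while the family median moves by less than 0.1.

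Rps19, a 40S protein needed to mature the small subunit and the gene most often mutated in Diamond-Blackfan anemia, rose in every irradiated condition. Its log2 ratio was -0.51 to -0.28 on the control arrays (median -0.32), 0.18 to 0.34 in low dose (median 0.25), 0.15 to 0.37 in high dose (median 0.30) and 0.47 to 0.64 in RAR (median 0.57). The control arrays lay below all others, the RAR arrays above all others, and low and high dose overlapped. The log2 difference from control was 0.61 in low dose, 0.64 in high dose and 0.91 in RAR (SE 0.06 in each), with limma adjusted p of 4.97e-07, 2.24e-07 and 6.22e-10. RAR exceeded high dose by 0.28 (limma adjusted p = 0.00187) and low dose by 0.31 (limma adjusted p = 0.000728).

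Rps19 was measured by a single probe, so no other probe of the gene could be compared with it. Within slide 2, where 2 RAR arrays stood beside 1 control array, its difference was 0.91. The RAR arrays there were female replicate 3, which had the fewest probes above background, and male replicate 1. The control was male replicate 1, so the sexes are not matched. Within slides 1 and 2 RAR exceeded high dose by 0.27 and 0.28. Its values in low and high dose were close to the 1.5-fold line at 0.58, and without female control replicate 3 it no longer passed that fold in low dose, at 0.58 with an adjusted p at most 3.60e-06 over the arrays left out in turn. With the Cy5 channel alone it lay under 1.5-fold in all 3 comparisons and kept its call by adjusted p. The rise over low dose had an adjusted p of 0.0504 with quantile normalization and 0.110 with Cy5 alone.

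Rps27l rose as well, and its relative Rps27 did not pass the test. Rps27l had log2 ratios of -0.77 to -0.46 in control (median -0.53), -0.34 to -0.04 in low dose (median -0.22), -0.29 to 0.05 in high dose (median -0.15) and -0.17 to -0.07 in RAR (median -0.13). All irradiated arrays lay above all control arrays, and the irradiated conditions overlapped each other. The differences from control were 0.35, 0.42 and 0.44 (SE 0.06), with limma adjusted p of 4.94e-04, 7.68e-05 and 1.60e-05. RAR and high dose differed by 0.02, which did not pass. With the Cy5 channel alone the RAR difference was 0.05 with a limma adjusted p of 0.543.

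Rps27 was read by 4 probes, with RAR differences of -0.08, -0.10, -0.09 and -0.09 and no limma adjusted p under 0.266. Its brightest probe had log2 ratios of 1.00 to 1.31 in control (median 1.21) and 0.90 to 1.24 in RAR (median 1.09), and these ranges overlapped. Against the other direct targets of TRP53, the Rps27l rise was small. Cdkn1a, which arrests the cell cycle, was higher in RAR than in control by 3.60 and Mdm2 by 0.96. Of the 8 genes in the list for MDM2 and TRP53, 7 rose in each of the irradiated conditions and Trp53 itself fell.

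**Figure D4:**
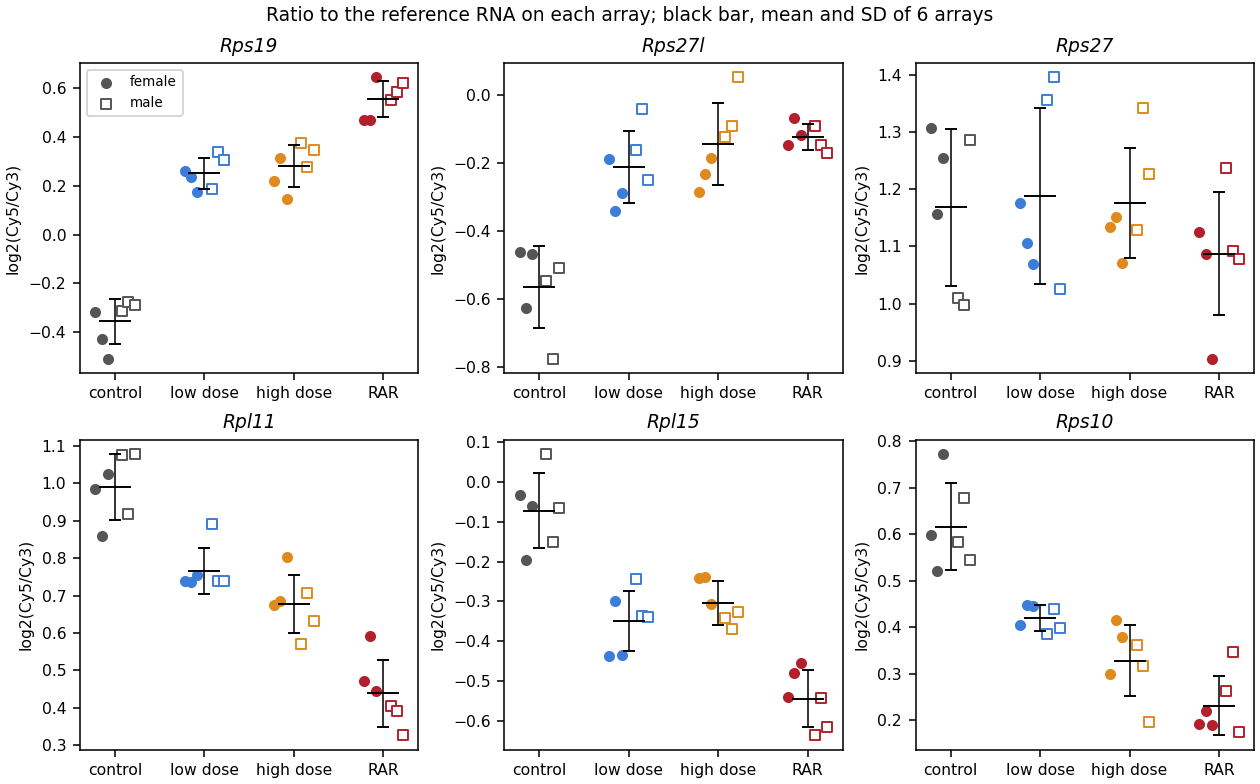
Log2 ratio of thymocyte over reference signal for Rps19, Rps27l, Rps27, Rpl11, Rpl15 and Rps10 on each array, with females as filled circles, males as open squares, and the mean and SD of 6 arrays in black. Rps19 rises from a control mean of -0.36 to 0.56 in RAR, Rpl11, Rpl15 and Rps10 are lower in RAR, and the Rps27 arrays overlap.

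Among the large-subunit proteins that bind MDM2, Rpl11 fell, Rpl5 and Rpl26 did not pass, and Rpl23 rose. Rpl11 and Rpl5 enter the ribosome together with 5S RNA. Rpl11 had log2 ratios of 0.86 to 1.08 in control (median 1.00), 0.74 to 0.89 in low dose (median 0.74), 0.57 to 0.80 in high dose (median 0.68) and 0.33 to 0.59 in RAR (median 0.42). The RAR arrays lay below all low dose and all control arrays, while RAR and high dose overlapped.

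The Rpl11 difference from control was -0.22 in low dose, -0.31 in high dose and -0.55 in RAR (SE 0.06), with limma adjusted p of 0.00861, 5.38e-04 and 3.33e-07. Its other 2 probes gave -0.42 and -0.40 in RAR. Within slide 2 the RAR difference was -0.65, from the same arrays as for Rps19. In males RAR against control reached -0.65, past the fold threshold, and in females it was -0.45. Rpl5 differed by -0.06, 0.00 and -0.05 in the 3 comparisons, and Rpl26 by 0.05, 0.05 and 0.08.

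Of the small-subunit proteins linked to MDM2, Rps7 was lower in RAR by 0.17 with a limma adjusted p of 0.0211, a call lost with quantile normalization (-0.10), with normexp and loess (-0.06) and with the slide as a block. Rps27 and Rps27l are given above.

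Rpl15, a 60S protein, and Rps10, a 40S protein at the head of the small subunit, fell in every irradiated condition. Rpl15 had log2 ratios of -0.20 to 0.07 in control (median -0.06), -0.44 to -0.24 in low dose (median -0.34), -0.37 to -0.24 in high dose (median -0.32) and -0.64 to -0.45 in RAR (median -0.54). The RAR arrays lay below all others and the control arrays above all others. The differences from control were -0.28, -0.23 and -0.47 (SE 0.06), with limma adjusted p of 0.00135, 0.00487 and 1.52e-06, and its second, dimmer probe gave -0.96 in RAR.

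Rps10 had log2 ratios of 0.52 to 0.77 in control (median 0.59), 0.39 to 0.45 in low dose (median 0.42), 0.20 to 0.42 in high dose (median 0.34) and 0.17 to 0.35 in RAR (median 0.21). All irradiated arrays lay below all control arrays. The differences were -0.20, -0.29 and -0.39 (SE 0.06), with limma adjusted p of 0.0200, 0.00108 and 2.41e-05. Rps10 had a single probe.

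Of 19 members called in RAR and followed through every alternative and every array left out, 5 kept their call throughout: Rps19, Rpl10l, Rpl11, Rpl15 and Rps10. Of these 5, Rpl10l was above background on none of the control arrays. The other members followed lost their call under at least 1 setting. Rps14, a protein of the platform of the small subunit, is an example. It had log2 ratios of 1.39 to 2.12 in control and 1.16 to 1.38 in RAR, without overlap, and a difference of -0.50 (limma adjusted p = 6.61e-05), which became -0.14 (limma adjusted p = 0.104) with normexp and loess and -0.06 with Cy5 alone. In females its RAR difference was -0.65, past the fold threshold, and in males -0.34. In low dose it differed by -0.15, which did not pass.

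The remaining falls in RAR were smaller. Rps16 was lower by 0.36 and Rpl36 and Rpl10a by 0.30 in the deposited ratios. Rpsa, the laminin receptor that is also a 40S protein, and Rplp2 of the ribosomal stalk were lower by 0.30. The stalk proteins bind the translation factors, and the other 2, Rplp0 and Rplp1, gave -0.10 and -0.06 without passing. With normexp and loess the Rpsa difference was -0.04 and that of Rplp2 -0.02, both without a call. In all, 13 members (of all probes 10%) were lower in each of low dose, high dose and RAR than in the shared controls, and 3 (of all probes 6.96%) were higher in each (Rps19, Rps27l and Rpl10l), while 35 passed in none.

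Some genes widely used as reference genes in expression work are members. Rplp0 did not pass in any comparison with control. Rpl13a was lower by 0.21 in RAR (limma adjusted p = 0.00580), and its other 2, dimmer probes were lower by 0.62 and 0.59, past the fold threshold. Rpl32, a 60S protein, was lower by 0.27 (limma adjusted p = 0.00152). The Rpl32 fall was -0.02 with normexp and loess. Rps6, the target of the S6 kinases, and Rps4x gave -0.12 and 0.01 without passing, but the other 2 Rps6 probes gave -0.26 and -0.54 and passed (limma adjusted p = 5.28e-04 and 8.94e-08). Rpl22, a 60S protein needed for the development of αβ T cells, had 0.06 to 0.29 in control and -0.19 to -0.01 in RAR, without overlap, a difference of -0.26 (limma adjusted p = 0.00180), which had a limma adjusted p of 0.0657 with quantile normalization and 0.0747 with slides blocked. Its other, dimmer probe gave -0.77.

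Several of the other rises were not shared by all probes of the gene. Rpl10, a late-joining 60S protein, was higher in RAR by 0.37, Rps15 by 0.34 and Rpl23 by 0.30. The 2 other Rpl10 probes gave -0.10 and 0.19, the second Rps15 probe gave -0.07, and the other Rpl23 probes gave 0.12 and -0.05; none of them passed in limma. Other probes above background on all 24 arrays were then counted. Of 5 rising members with such probes, 0 had all of them on the same side. Of 22 falling members 18 did, 12 with every such probe past the adjusted p as well. Rpl21, higher by 0.19, is not among the 5. Its other probes, above background on 23 arrays, gave -0.51 and -1.56 and passed by the limma adjusted p. With the Cy5 channel alone the Rps15 difference was -0.09 and that of Rpl10 0.02.

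Dimmer probes of the members fell more than bright ones. The 64 other probes with a mean log2 Cy5 of at least 14 had a median RAR difference of -0.10, and 1 of them was past the fold threshold, a probe of Rps24 that rose by 0.68. The 14 other probes under that signal and above background on all arrays had a median of -0.57 and ran from -1.36 to 0.30. Of these 14, 7 were past the threshold, all lower, where 26% of all probes passed. By the limma adjusted p alone 11 were lower and 1 was higher. Shares among dim probes of other genes are not given. Examples of the falls are the third Rpl39 probe at -1.07 and the second Rps25 probe at -1.36, where the brightest probes of these genes gave -0.24 and -0.18. The dimmest Rpsa probe, above background on 22 arrays, gave -2.16 against -0.30 for the brightest. What the dim probes bind was not examined, since the probe sequences are not used here.

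**Figure D5:**
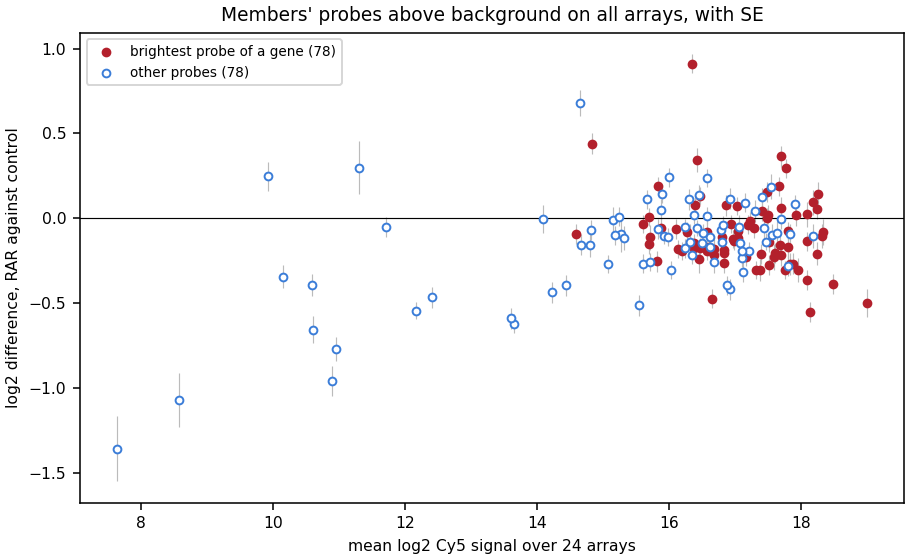
Log2 difference between RAR and control, with its standard error, against the mean log2 Cy5 signal for the members' probes above background on all arrays: 78 brightest probes (filled) and 78 other probes (open). The 14 other probes under a signal of 14 have a median of -0.57, and the 64 brighter ones a median of -0.10.

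Paralogues with tissue-restricted expression were at the limit of detection. Rpl10l, a copy of Rpl10 that acts in male germ cells, was above background on 15 of 24 arrays and on none of the control arrays. Its rise had a limma adjusted p of 0.00322 in low dose, 2.78e-04 in high dose and 4.15e-05 in RAR, with fitted log2 differences of 1.74, 2.27 and 2.49. Its log2 ratio was 0.00 to 1.81 in control (median 1.27), 1.88 to 3.28 in low dose (median 2.90), 2.75 to 3.88 in high dose (median 3.11) and 1.12 to 4.50 in RAR (median 3.99). RAR overlapped control through female RAR replicate 3. The size depended on the processing: with normexp and loess the differences were 0.32, 0.33 and 0.54, and with slides blocked the high dose difference of 1.90 had a limma adjusted p of 0.0930. Since no control array measured the probe above background, no fold is given.

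A second Rpl10l probe was above background on 0 arrays. Without female RAR replicate 3, which had the fewest probes above background, Rpl10l also passed the fold threshold in RAR against low dose, which the full set of arrays did not give. Rpl39l, a paralogue known for its expression in testis, was above background on 15 arrays and passed in no comparison with control, and Rpl3l, the form known from muscle, on 0. Rpl36al, a widely expressed copy of Rpl36a, was lower in low dose by 0.22 and in high dose by 0.26 and gave -0.09 in RAR, which did not pass.

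Among 10 members picked as Diamond-Blackfan anemia genes, which is not a full list, Rps19 rose in RAR and 5 fell by the adjusted p. Their median was -0.10, and 38.2% of all probes and 54.3% of the family passed. Rpl11, Rps10, Rps7 and Rpl35a (-0.17) were among the falls, and Rpl5 and Rpl26 did not pass.

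The comparisons of RAR with each single dose set mice given both doses beside mice given a single dose. The time to collection was not given, so these groups may also differ in the time since exposure. Against high dose 0 of 81 members passed the threshold, where 9.46% of all probes did, and 13 had an unadjusted p under 0.05 (32.2% of all probes). Against low dose it was again 0, with 9.05% of all probes, and 18 at an unadjusted p under 0.05 (30.6%). By the limma adjusted p alone 7 members differed from high dose, with Rps19, Rpl10 and Rpl36al higher and Rpl11, Rpl13a, Rpl15 and Rpl28 lower, where 21.6% of all probes did (9.1% higher, 12.5% lower). From low dose 12 members differed, 4 higher and 8 lower, against 21.2% of all probes (8.6% higher, 12.6% lower).

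These calls differed in how well they held. Rps19 against high dose kept its call in 24 of 24 fits that left out 1 array, with a highest limma adjusted p of 0.00692. Rps19, Rpl10, Rpl11, Rpl15 and Rpl28, a 60S protein, differed from both single doses in the same direction. Leaving out single arrays moved the count against high dose between 1 and 3 higher and 2 and 4 lower, and that against low dose between 1 and 4 higher and 4 and 9 lower. Rpl36al against high dose had an adjusted p of 0.0491, and kept its call in 5 of these 24 fits. Without female high dose replicate 1, Rpl3l, which was never above background, passed the threshold against high dose. Without female RAR replicates 2 and 3 together, 1 member was higher and 2 lower than in high dose and 2 higher and 3 lower than in low dose, while RAR against control kept 8 higher and 29 lower.

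For 35 of the 44 members called in RAR against control, the RAR difference was larger than both single-dose differences, 27 of 34 among the falls and 8 of 10 among the rises. This is a description of fitted values that share the control arrays. The 44 were picked by their RAR difference, which by itself favours a larger value in RAR, and the share over all probes is not given. For most of these members the difference between RAR and a single dose did not pass the test.

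Sex made no difference that passed in this family. Between male and female RAR mice 0 of 81 members passed by fold or by limma adjusted p, and 0 had an unadjusted p under 0.05, where 0.438% of all probes were past the threshold and 11.8% had such an unadjusted p. Between male and female controls 0 passed the threshold (0.207% of all probes), with 14 members at an unadjusted p under 0.05 (8.55% of all probes). The interaction of sex and treatment (limma F-test of 3 terms) passed in 0 members and 0.00359% of all probes, with 4 of 81 members at an unadjusted p under 0.05 where 6.45% of all probes were. These were Rpl30, Rpl37a, Rps14 and Rps18, with the lowest adjusted p at 0.749.

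These 4 genes were picked by an unadjusted p, which members reached in no larger share than all probes. None passed after adjustment, so their values are a description and no sex effect is read from them. Among them, the sexes differed most in the control mice. Rps14 had a mean of 1.93 in female and 1.57 in male controls, and 1.28 and 1.22 in RAR. Rpl30 had -0.81 in female and -0.52 in male controls, and -0.52 and -0.55 in RAR. All female control arrays were on slide 3, and 2 male controls were there as well. Within that slide Rps14 was 1.83 to 2.12 in females and 1.39 and 1.70 in males, and Rpl30 was -0.84 to -0.76 in females and -0.52 in both males. With the value farthest from its group mean left out in each group, a strict reading of an outlier step in the methods, the interaction passed in 39 members, and male against female RAR gave 1 member higher and 6 lower by limma adjusted p. This setting removes spread by its construction. The share of all probes that passed under it is not given, so these counts are not a result about the family.

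Members with and without a pyrimidine core at the RefSeq start were counted in RAR as a description. Of all probes 16.5% were higher and 21.7% lower, and the split of the family turns with normexp and loess, as given above. Of the 24 with a core 0 were higher and 12 lower by the adjusted p, with a median log2 difference of -0.17. Of the 37 without a core 8 were higher and 14 lower, with a median of -0.10. Of the 20 members that have no such start 2 were higher and 8 lower. Rps19, Rps27l and Rpl11, printed above without capitals, are among the 37, and Rps27, which did not pass the test, has 2 cores.

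Other genes of ribosome production and translation were counted beside the family, with no test between the lists. Of 6 ribosomal proteins or homologues that carry other names, 0 rose and 3 fell in RAR, among them Rack1 (-0.36), which sits on the 40S subunit, and Rpl7l1 (-1.14), a homologue that acts in ribosome assembly, while Fau (-0.12) and Rpl22l1 (0.03) did not pass. Of 30 ribosome biogenesis genes, 29 were lower in each of the irradiated conditions by the adjusted p, with medians of -0.88, -0.91 and -0.83. Fbl, the methyltransferase fibrillarin, was lower by 0.97 in RAR, the nucleolar GTPase Gnl3 by 1.32, Dkc1 by 1.71 and Npm1 by 0.34. In RAR 22 of 30 passed 1.5-fold. Between RAR and high dose 4 of the 30 were higher and 3 lower by the adjusted p, with Nob1 lower by 0.58 and Mrto4 higher by 0.31.

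Of 12 genes for RNA polymerase I, which transcribes ribosomal RNA, 11 were lower in RAR and Ubtf was higher by 1.87, with a median of -0.49. Polr1b, its second largest subunit, was lower by 1.51. Of 23 translation factors, 14 were lower and 1 higher, with a median of -0.22; Eif4e, the cap-binding protein, was lower by 0.63, Eif5a by 0.75, and Eef1a1 gave -0.04 without passing. Of 14 regulators of TOP mRNAs and S6 kinase 6 were higher and 5 lower. Ddit4, an inhibitor of this pathway, was higher by 1.54 and Eif4ebp1 by 0.74, Mtor was lower by 0.66, and Larp1, which binds TOP starts, was higher by 0.21. In low and high dose Larp1 went the other way, with differences from control of -0.26 and -0.24 that passed by the adjusted p. These lists were described by their counts only, beside 38.2% of all probes by the adjusted p in RAR.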

How the data were processed

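RNA of 24 thymocyte samples (8 groups of sex and treatment, 3 mice each) was hybridized to Agilent 2-colour arrays with 62976 spots on 3 slides. Per the file headers, Feature Extraction 11.5.1.1 had subtracted background, normalized the dyes and flagged spots, and the intensity of each spot was deposited for both channels. The measurement used here was the log2 ratio of Cy5 over Cy3 that the authors deposited for 55681 probes; it matched the ratio of the processed intensity signals within 0.01 for 100% of the unflagged probes, and 0 columns of values were left unmatched. Flagged outlier spots numbered 183 to 368 per array, and 0 spots were saturated.

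One linear model of 8 group means (limma 3.58.1, R 4.3.3) took in the 24 arrays (16 residual and 1.63 prior degrees of freedom), with both sexes averaged with equal weight in each comparison and Benjamini-Hochberg adjustment over all probes. The threshold was an adjusted p under 0.05 and 1.5-fold, as in the methods. The fit was tested on simulated data. Probes (28026) were named through their accession with the RefSeq annotation of GRCm38.p6, whose coordinates were used only for the printed start windows, since the array headers name another build. Files were parsed and plotted with Python, pandas and matplotlib. P-values measure the spread between 3 mice per group; correlations between arrays of a group were 0.800 to 0.914.

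The members, the gene lists and the alternatives were chosen with earlier results of these data known. Genes named singly were a fixed list of 23 symbols, the largest changes per comparison, the extremes in control and up to 4 per other list, and Rpl15, Rps10, Rpl10, Rps15, Rps16 and the other genes named outside these rules, also those of the other lists, were chosen after their values were seen. Rps4l, 1 of the 23, is annotated as a pseudogene and was left out. Some results for single members are not reported here. The number of arrays limits the precision, and 0 correlations across samples were computed. Alternatives were outlier spots left out, normexp (offset 50) with loess, quantile normalization, the Cy5 channel scaled to its 75th percentile, a filter on dim probes, slide and replicate number as blocks, an intensity trend, other fold thresholds, the farthest value left out, the mean of a gene's probes and each array left out. Leaving out female RAR replicates 2 and 3 together was added after the values were seen.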

Additional observations from a re-analysis of the deposited data

How the results depend on the processing

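At the threshold with 1.5-fold, 2 members passed in low dose, high dose and RAR against control and 0 in the comparisons of RAR with the single doses, of the sexes in RAR and of the interaction. Normexp with loess gave 1 in each of the 3 comparisons with control (Rps19), and a log2 change over 1.5 gave 1 (Rpl10l). Cy5 alone gave 1 in low dose, 1 in high dose, 4 in RAR against control (Rpl10l, Rpl11, Rpl15 and Rps2), 1 in RAR against high dose and 1 in RAR against low dose (Rpl10l). The slide as a block gave 1 in high dose (Rps19). Adjusted p without a fold gave 18, 29, 44, 7 and 12. Dropping the most deviant value in every group gave counts for RAR of 4 against control, 2 against high dose and 3 against low dose, and 39 for the interaction. That setting removes spread by its construction, and its share of all probes is not given. The mean of the probes of a gene gave 7 in RAR against control (among them Rps19, Rpl15 and Rpsa). Leaving out each array in turn gave 1 to 2 in low dose (1 without female control replicate 3), 2 to 2 in high dose and RAR against control, and 0 to 1 in RAR against high dose (1 without female high dose replicate 1) and against low dose (1 without female RAR replicate 3). Without female RAR replicates 2 and 3, RAR against low dose gave 1. Rps15 in RAR against control reversed to a log2 difference of -0.088 with Cy5 alone. Replicate numbers did not pair the arrays (correlations of same-numbered deviations -0.16 to 0.21, 4 of 84 over 0.1). With the replicate block 2, 2 and 2 members passed against control, 9 were higher and 32 lower in RAR by adjusted p, and of 44 named results 1 lost its call (Rpl23 against low dose, adjusted p = 0.0627). Of the 44, 28 kept their call with normexp and loess, 28 with quantiles, 28 with Cy5 alone and 24 with the slide block; the cause was not tested. Rpl10l, Rpl39l and Rpl3l were limited by signal close to background.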
